A study of Mus musculus with 15 samples.

Results

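Chemokines are small secreted proteins that guide the movement of cells, and their receptors are G protein-coupled receptors of the cell surface. The genes described here were chosen by symbol. They are the protein-coding genes whose symbol begins with Ccl, Cxcl, Xcl, Cx3cl, Ccr, Cxcr or Ackr followed by a digit, without Ccr2 and Ccr7. The rule found 65 entries among the 55486 genes of the table, under 59 symbols, of which 40 named ligands and 19 named receptors. Of these entries, 7 lay on unplaced scaffolds, all with 0 counts. The rule does not take in Cx3cr1, Xcr1, Ccrl2, Pf4 and Ppbp, which are named otherwise.

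The counts came from macrophages of primary mouse brain tumours, isolated by flow cytometry and sequenced as 15 bulk RNA-seq libraries. There were 3 libraries of lipid-laden monocyte-derived macrophages (MDM), 4 of non-lipid-laden MDM, 4 of lipid-laden microglia and 4 of non-lipid-laden microglia. Below, "MDM" and "microglia" with no further word are the non-lipid-laden groups. All tumours shared the labelled genotype "Ink4a/ArfKO, PDGFB", in which a platelet-derived growth factor is expressed from Nestin-positive progenitor cells in mice without Ink4a and Arf, so no group came from a tumour-free brain. Age and treatment, and the stain and gate that set lipid load, are not stated in the sources used here. Libraries carry the numbers 221, 224, 431 and 718, and values are given in that order (221, 224 and 718 for lipid-laden MDM).

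In the brain, microglia are the resident macrophages and MDM enter from the blood. CC chemokines such as Ccl2 draw monocytes through the receptor Ccr2, and Ccl3 and Ccl5 act through Ccr1 among others. Of the CXC chemokines, some attract neutrophils through Cxcr2, some attract T cells through Cxcr3 and others use further receptors. Atypical receptors (Ackr) bind chemokines and remove them without G protein signalling.

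Total counts ranged from 7798952 to 11419338 per library. Values are CPM, read counts scaled by TMM-adjusted library sizes, and a gene was called when its Benjamini-Hochberg adjusted p over all 14843 genes tested was under 0.05 in edgeR's quasi-likelihood test. Unless a block is named, that fit held no term for library number. Calls that changed with such a term, the block, are given with the genes or at the end. The labels were checked against 8 microglial and 8 MDM markers. Microglial markers summed to 6160 to 8850 CPM in lipid-laden MDM, 2050 to 3370 CPM in MDM, 5710 to 14500 CPM in lipid-laden microglia and 8560 to 13000 CPM in microglia. Lipid-laden MDM thus carried more of the microglial markers than MDM did, with 7 of the 8 called higher. MDM markers summed to 1360 to 1750 CPM in lipid-laden MDM, 3140 to 3880 CPM in MDM, 281 to 684 CPM in lipid-laden microglia and 260 to 403 CPM in microglia. Dendritic cell markers (11 genes) summed to 221 to 276 CPM in lipid-laden MDM, 1240 to 2830 CPM in MDM, 57.2 to 110 CPM in lipid-laden microglia and 88.8 to 150 CPM in microglia. T and NK cell markers (12 genes) were lower throughout, at 36 to 123 CPM in lipid-laden MDM, 45.4 to 203 CPM in MDM, 1.45 to 14.3 CPM in lipid-laden microglia and 4.17 to 14.2 CPM in microglia. Markers of astrocytes and glioma progenitors (10 genes) summed to 87.8 to 212 CPM in lipid-laden MDM, 19.9 to 41.7 CPM in MDM, 235 to 504 CPM in lipid-laden microglia and 213 to 508 CPM in microglia. General macrophage markers (6 genes) summed to 6450 to 7900 CPM in lipid-laden MDM, 4420 to 5160 CPM in MDM, 6230 to 7980 CPM in lipid-laden microglia and 6400 to 7370 CPM in microglia. Over all libraries, neutrophil markers to 105 to 566 CPM, endothelial and mural markers to 31.4 to 276 CPM, B cell markers to 20.3 to 88.7 CPM and oligodendrocyte markers to 151 to 245 CPM. Number 221 stood apart from the other libraries of its group for 13 of 112 combinations of gene and group (Dixon's test, groups of 4 libraries). Some of these rested on a few reads in 1 library, such as Xcl1 in microglia (1 read). In bulk samples, fewer cells of a type and less RNA per cell cannot be told apart.

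**Figure D1:**
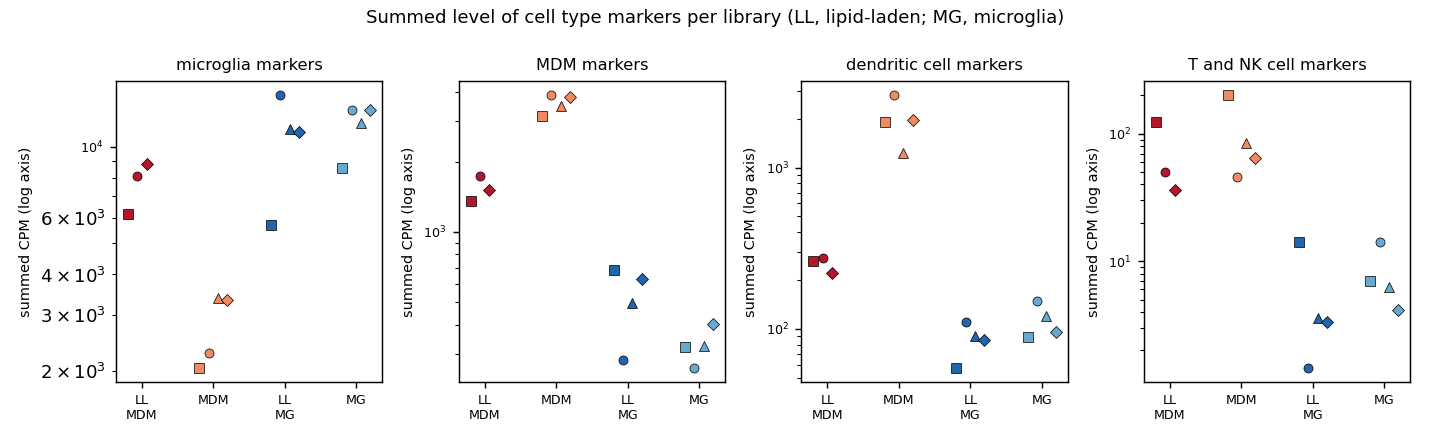
Summed CPM of 4 lists of cell type markers (log axis) in each library of lipid-laden MDM, MDM, lipid-laden microglia and microglia, with squares for library number 221, circles for 224, triangles for 431 and diamonds for 718. Lipid-laden MDM lay above MDM for microglial markers (6160 to 8850 against 2050 to 3370 CPM) and below MDM for dendritic cell markers (221 to 276 against 1240 to 2830 CPM).

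Of the 59 symbols, 40 passed the filter on low counts (27 ligands and 13 receptors) and 19 did not. A gene could pass through a single group in which it was high, so counts over these 40 are descriptions and do not cover the whole family. No read was counted in any library for 12 symbols: Ccl19, Ccl20, Ccl21a, Ccl21b, Ccl21c, Ccl21d, Ccl26, Ccl27b, Ccl28, Cxcl5, Cxcl15 and the receptor Ccr4. The other 7 had a few reads, with a highest count in any library of 28 for Ccl1, 12 each for Ccr1l1 and Ackr4, 9 for Cxcr1, 7 for Ccr10, 6 for Cxcl17 and 1 for Ackr2. The reads of Ccl1 came from MDM 221 (28 counts, 3.27 CPM) and lipid-laden MDM 221 (24 counts, 2.64 CPM) alone. Apart from Ccl1 in those 2 libraries, expression of these 19 was not detectable or barely so at this depth. Ccl19, the Ccl21 genes and Ccl27 have near-identical copies, and reads shared between copies may have been left uncounted.

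Among the 40 genes that passed, levels were compared between genes only per length, as CPM per kilobase of annotated exon, which assumes that reads cover whole transcripts. On that scale Ccl4 was highest and Ccl3 next in each of the 4 groups. Ccl4 was at 1306 ± 159 CPM per kilobase in lipid-laden MDM, 865 ± 66.0 in MDM, 1773 ± 297 in lipid-laden microglia and 2349.9 ± 438 in microglia (SD), and Ccl3 was at 1062 ± 23.0, 567 ± 62.4, 1181 ± 303 and 1588 ± 273 in the same order. Ccl2 and Ccl12 took the next places in lipid-laden MDM, lipid-laden microglia and microglia, and their order there lay within their SD. In MDM the third place belonged to Ccl17, at 296 ± 303 CPM per kilobase, whose SD exceeds its mean.

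**Figure D2:**
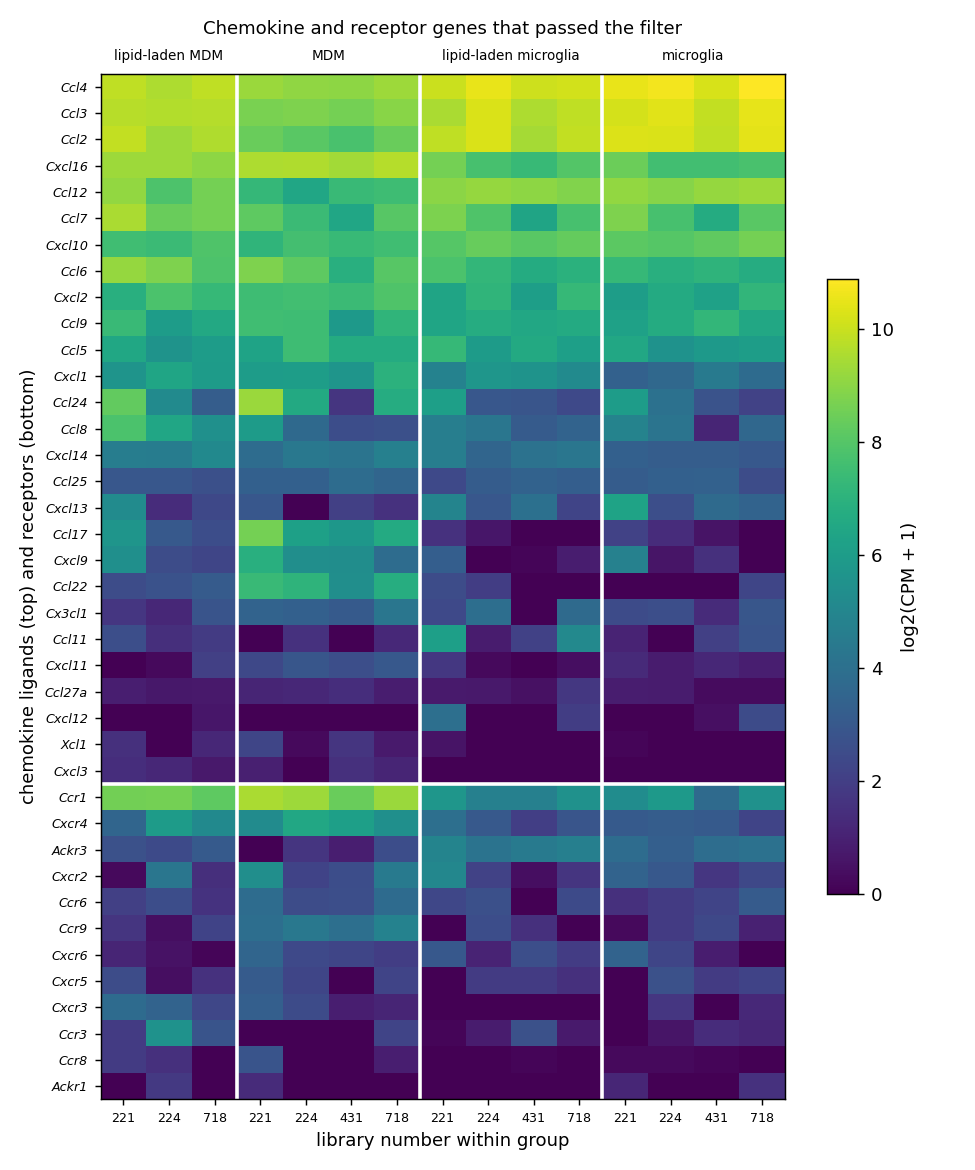
Level of 39 of the 40 chemokine ligand and receptor genes that passed the filter, as log2(CPM + 1), by library in the order lipid-laden MDM, MDM, lipid-laden microglia and microglia, with ligands above the white line and receptors under it. Ccl4, Ccl3 and Ccl2 were bright throughout and, as a group, dimmest in MDM, and Ccl17, Ccl22 and Ccr1 were brightest in MDM.

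Origin gave the most calls. In MDM over microglia, 17 of the 40 genes were called, 11 higher and 6 lower, against 23.2% of all genes tested (10.7% higher and 12.5% lower). The median log2 fold change of the 40 was 1.08, against -0.12 over all genes tested. In lipid-laden MDM over MDM, 5 were called, 4 higher and 1 lower, against 8.17% of all genes (5.21% higher and 2.96% lower), with a median of -0.25 against 0.04. In lipid-laden MDM over lipid-laden microglia, 6 were called, all higher, against 2.78% of all genes (2.2% higher and 0.579% lower), with a median of 0.46 against -0.03. In lipid-laden over non-lipid-laden microglia none was called, against 0% of all genes, with 7 of the 40 and 1367 of all genes at an unadjusted p under 0.05. There, limma-voom called 0 of the 40 and DESeq2 called 2, Cxcl1 higher and Cxcr3 lower. The effect of lipid load differed between the origins for 4 genes, all more positive in MDM, against 2.53% of all genes (1.6% more positive and 0.93% more negative). Placing genes with 0 counts in a group at the bound of their fold left these medians as they were. These comparisons share groups, so they are not independent of each other. Without lipid-laden MDM 718 or MDM 224, 3 of the genes were called in lipid-laden MDM over MDM. Without lipid-laden MDM 224 or lipid-laden microglia 431 the 6 calls between lipid-laden cells became 2, and without lipid-laden MDM 221 or lipid-laden microglia 224 or 718 they became 3. Without lipid-laden MDM 221 or 718 the calls of a difference between origins became 2.

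**Figure D3:**
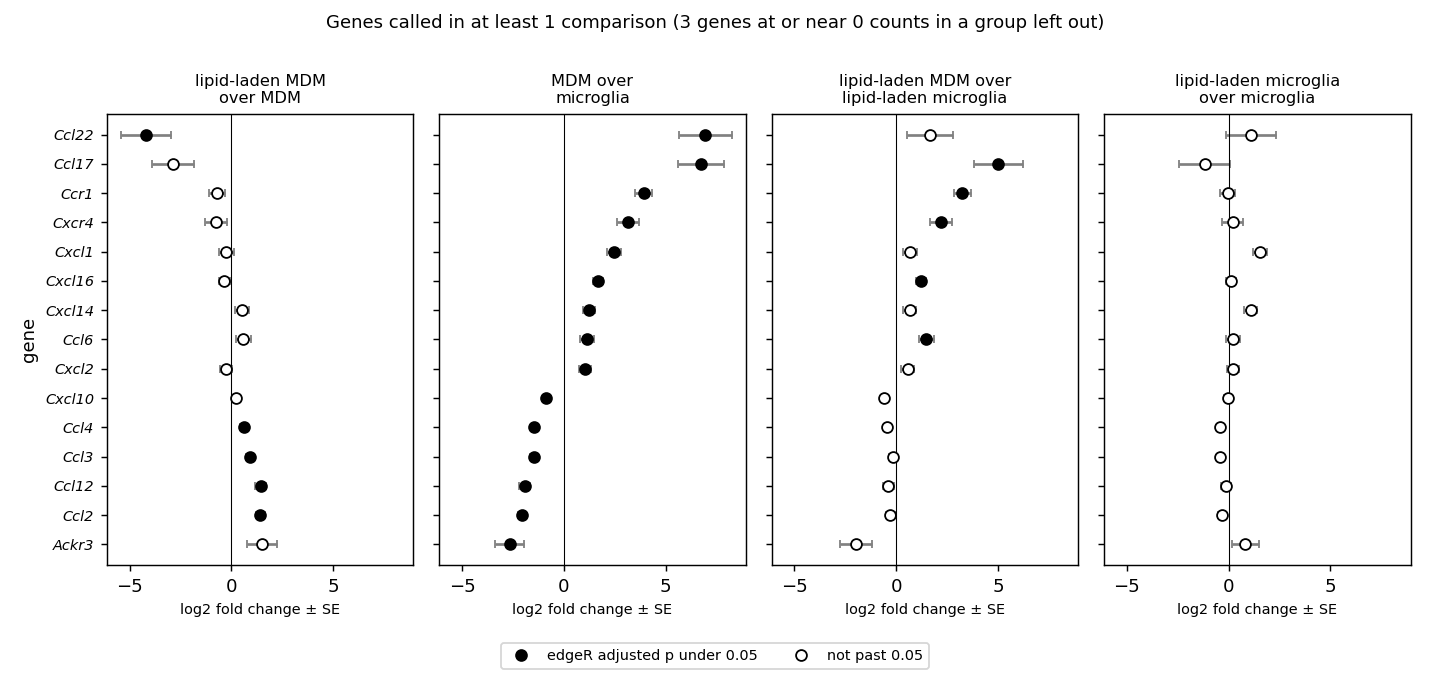
Log2 fold change with its SE for 15 genes called in at least 1 of the 4 comparisons, filled where the edgeR adjusted p was under 0.05. Cxcl3, Xcl1 and Cxcr3, at or near 0 counts in 1 group, are left out. Ccl2, Ccl12, Ccl3 and Ccl4 lay right of 0 in lipid-laden MDM over MDM (0.59 to 1.43) and left of 0 in MDM over microglia (-2.05 to -1.44).

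The monocyte-attracting chemokines Ccl2 and Ccl12 were lower in MDM than in microglia and higher in lipid-laden MDM than in MDM. Ccl2 (ENSMUSG00000035385, chromosome 11, 82035571 to 82037453) was at 931, 633 and 761 CPM in lipid-laden MDM, at 336, 271, 217 and 338 CPM in MDM, at 920.0, 1241, 691 and 934 CPM in lipid-laden microglia and at 1280.2, 1230.3, 915 and 1388 CPM in microglia. MDM had the lowest values, with no overlap with microglia or with lipid-laden MDM, while lipid-laden MDM overlapped both microglial groups. The log2 fold change was -2.05 in MDM over microglia (SE 0.20, edgeR adjusted p = 4.43e-06) and 1.41 in lipid-laden MDM over MDM (SE 0.21, edgeR adjusted p = 0.000701). In lipid-laden over non-lipid-laden microglia it was -0.35 (edgeR adjusted p = 0.627), and the difference of these effects of lipid load was 1.76 (SE 0.29, edgeR adjusted p = 0.00474). Ccl12, a second ligand of Ccr2 that is known from mice (ENSMUSG00000035352, chromosome 11, 82101845 to 82103400), was at 562, 227 and 389 CPM in lipid-laden MDM, at 151, 85.7, 164 and 181 CPM in MDM, at 506, 566, 528 and 447 CPM in lipid-laden microglia and at 553, 479, 568 and 619.6 CPM in microglia. It showed the same order, with MDM lowest and clear of lipid-laden MDM and microglia. The log2 fold change of Ccl12 was -1.93 in MDM over microglia (SE 0.25, edgeR adjusted p = 4.83e-05), 1.43 in lipid-laden MDM over MDM (SE 0.26, edgeR adjusted p = 0.00305) and -0.12 in lipid-laden over non-lipid-laden microglia (edgeR adjusted p = 0.956). Its difference of lipid-load effects was 1.55 (SE 0.35, edgeR adjusted p = 0.0295) and lost its call without lipid-laden MDM 221 (edgeR adjusted p = 0.078) or 718 (0.0717), lipid-laden microglia 221 (0.0501), 431 (0.0532) or 718 (0.06), or microglia 431 (0.0515) or 718 (0.0639). Their receptor gene Ccr2, used here as an MDM marker, averaged 215 ± 65.3 CPM in lipid-laden MDM, 959 ± 243 CPM in MDM, 3.70 ± 2.95 CPM in lipid-laden microglia and 8.46 ± 3.85 CPM in microglia (SD), so the receptor gene was highest in the group where its ligands were lowest.

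Ccl3 and Ccl4, the macrophage inflammatory proteins, followed the pattern of Ccl2. Ccl3 (ENSMUSG00000000982, chromosome 11, 83647844 to 83649355) was at 830.1, 795 and 814 CPM in lipid-laden MDM, at 410.1, 439, 388 and 498 CPM in MDM, at 729.6, 1233, 752 and 904 CPM in lipid-laden microglia and at 1148, 1334, 956 and 1429 CPM in microglia. The 3 lipid-laden MDM libraries were close together and above every MDM library. The log2 fold change of Ccl3 was -1.49 in MDM over microglia (SE 0.17, edgeR adjusted p = 1.48e-05), 0.91 in lipid-laden MDM over MDM (SE 0.18, edgeR adjusted p = 0.00513) and -0.43 in lipid-laden over non-lipid-laden microglia (edgeR adjusted p = 0.437), with a difference of lipid-load effects of 1.33 (SE 0.24, edgeR adjusted p = 0.00857). Ccl4 (ENSMUSG00000018930, chromosome 11, 83662584 to 83664683) was at 924, 741 and 921 CPM in lipid-laden MDM, at 600.1, 540.0, 528 and 616 CPM in MDM, at 1036, 1457, 1055 and 1131 CPM in lipid-laden microglia and at 1451, 1656, 1209 and 1887 CPM in microglia. Lipid-laden MDM lay between MDM and both microglial groups, with no overlap with MDM or with lipid-laden microglia. For Ccl4 the log2 fold change was -1.44 in MDM over microglia (SE 0.15, edgeR adjusted p = 7.63e-06), 0.59 in lipid-laden MDM over MDM (SE 0.16, edgeR adjusted p = 0.032) and -0.41 in lipid-laden over non-lipid-laden microglia (edgeR adjusted p = 0.407), with a difference of 1.00 (SE 0.22, edgeR adjusted p = 0.023). The call of Ccl4 in lipid-laden MDM over MDM was lost without lipid-laden MDM 221 (edgeR adjusted p = 0.104) or 718 (0.121), or MDM 221 (0.0502), 224 (0.0809) or 431 (0.0707). The call of its difference was lost without lipid-laden MDM 221 (edgeR adjusted p = 0.0578) or 718 (0.0733) or microglia 224 (0.0532) or 718 (0.0519). The group means of all 4 genes stood in the order of the microglial marker sums, and the markers of astrocytes and glioma progenitors, like those of microglia, were higher in lipid-laden MDM than in MDM (5 of 10 and 7 of 8 called). General macrophage markers summed lowest in MDM too, with no overlap with the other groups. Of these 6, 5 were called higher and 1 lower in lipid-laden MDM than in MDM, and 4 lower and 1 higher in MDM than in microglia. The exception in both was Ptprc (log2 fold changes -0.73 and 1.03). The part of these marker lists in the result was not tested.

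**Figure D4:**
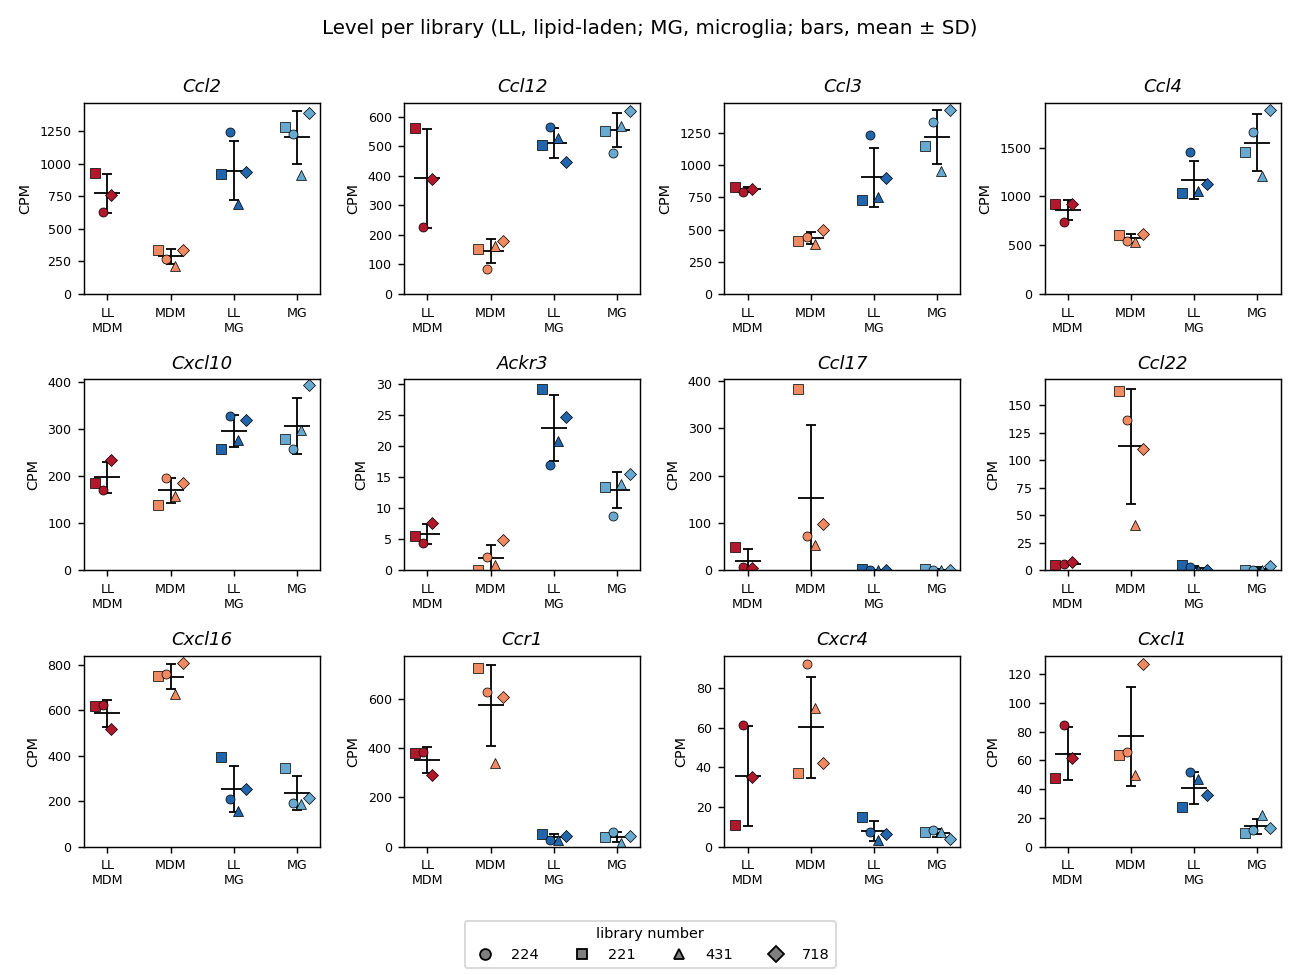
CPM per library of 12 called genes in lipid-laden MDM, MDM, lipid-laden microglia and microglia (LL, lipid-laden; MG, microglia), with bars for mean ± SD (cut at 0 for Ccl17, Ccl22 and Ackr3) and point shapes for the library number. Ccl2, Ccl12, Ccl3 and Ccl4 were lowest in MDM (Ccl2 775 ± 149 CPM in lipid-laden MDM, 291 ± 58.1 in MDM, 946 ± 225 in lipid-laden microglia and 1203 ± 203 in microglia), and Ccl17, Ccl22, Cxcl16, Ccr1 and Cxcr4 were highest there.

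These genes lie among neighbours of the same family on chromosome 11 (coordinates as deposited, build mm10). Ccl2, Ccl7, Ccl11, Ccl12, Ccl8 and Ccl1 lie between 82035571 and 82305690, and Ccl5, Ccl9, Ccl6, Ccl3 and Ccl4 between 83525778 and 83664683. In the first stretch all 5 genes that passed the filter had a fold change above 1 in lipid-laden MDM over MDM, 2 of them called. In the second stretch 3 of 5 did, 2 of them called. Of all genes tested, 8.17% were called in that comparison, 5.21% being higher. Their median log2 fold change was 0.04, so a fold change above 1 was common.

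Ccl7, Ccl8 and Ccl11 varied widely between libraries. Ccl7, a further ligand of Ccr2, was at 716, 336 and 389 CPM in lipid-laden MDM, at 291, 169, 87.0 and 266 CPM in MDM, at 425, 236, 80.0 and 212 CPM in lipid-laden microglia and at 441, 211, 103 and 273 CPM in microglia. Every lipid-laden MDM library lay above every MDM library, but Ccl7 did not pass without the block (log2 fold change 1.24, SE 0.52, edgeR adjusted p = 0.166). It passed with library number as a block (log2 fold change 0.90, edgeR adjusted p = 0.00257). Over lipid-laden microglia it had a log2 fold change of 1.01 (edgeR adjusted p = 0.395), which passed with library number as a block (edgeR adjusted p = 0.0154, with 3.83% of all genes called in that fit). Ccl8, which in mice binds Ccr8, was at 225, 84.6 and 43.4 CPM in lipid-laden MDM, at 62.4, 12.3, 4.94 and 5.25 CPM in MDM, at 24.1, 18.3, 7.83 and 10.2 CPM in lipid-laden microglia and at 27.9, 17.0, 1.17 and 11.3 CPM in microglia. Number 221 was highest in each of the 4 groups, and lipid-laden MDM did not overlap lipid-laden microglia. Ccl8 did not pass in lipid-laden MDM over MDM (log2 fold change 2.47, SE 0.90, edgeR adjusted p = 0.108), though it passed without MDM 221 (log2 fold change 3.97, edgeR adjusted p = 0.0122) and by limma-voom (adjusted p = 0.0271). With the block it passed in that comparison too (log2 fold change 2.38, edgeR adjusted p = 0.00688). Over lipid-laden microglia it passed with the block (edgeR adjusted p = 0.0253) but not without it (0.113). Ccl11, the eosinophil attractant eotaxin, was at 5.07, 1.73 and 2.74 CPM in lipid-laden MDM, at 0, 1.91, 0 and 1.36 CPM in MDM, at 69.6, 0.780, 3.29 and 34.0 CPM in lipid-laden microglia and at 1.14, 0, 3.16 and 6.20 CPM in microglia, with the high values in lipid-laden microglia resting on numbers 221 and 718. It passed in none of the comparisons (edgeR adjusted p = 0.366 or more).

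Among the further CC ligands, Ccl6 was higher in MDM, and Ccl5, Ccl9, Ccl24 and Ccl25 passed in no comparison by edgeR with all libraries and no block. Ccl6, which in mice acts through Ccr1, was at 570.1, 437 and 232 CPM in lipid-laden MDM, at 442, 288, 117 and 267 CPM in MDM, at 222, 145, 104 and 123 CPM in lipid-laden microglia and at 156, 116, 135 and 105 CPM in microglia. It was called higher in MDM than in microglia (log2 fold change 1.12, SE 0.35, edgeR adjusted p = 0.0286) although MDM 431 lay within the microglial range, and higher in lipid-laden MDM than in lipid-laden microglia with no overlap (log2 fold change 1.48, SE 0.37, edgeR adjusted p = 0.0426). The first call was lost without MDM 221 (edgeR adjusted p = 0.107) or 224 (0.0558) or microglia 224 (0.067) or 718 (0.0742), and by limma-voom (adjusted p = 0.0556). The second was lost without lipid-laden MDM 221 (0.173) or 224 (0.149), lipid-laden microglia 224 (0.0836), 431 (0.123) or 718 (0.105), and MDM 224 or 718 or microglia 224, 431 or 718 (edgeR adjusted p = 0.0501 to 0.0593). Ccl9, a neighbour of Ccl6 with the same receptor, was at 166, 64.5 and 94.2 CPM in lipid-laden MDM, at 186, 179, 58.3 and 138 CPM in MDM, at 83.9, 107, 90.9 and 100.4 CPM in lipid-laden microglia and at 74.2, 102, 148 and 91.0 CPM in microglia, and the groups overlapped in every comparison. Ccl5, which binds Ccr1 among others, was at 89.3, 47.8 and 63.9 CPM in lipid-laden MDM, at 77.9, 180.5, 102 and 103 CPM in MDM, at 155, 62.3, 96.8 and 69.8 CPM in lipid-laden microglia and at 92.1, 45.3, 57.5 and 65.1 CPM in microglia. Its highest value was in MDM 224, and it did not pass in MDM over microglia (log2 fold change 0.83, SE 0.32, edgeR adjusted p = 0.0761), though it passed without lipid-laden microglia 221 (edgeR adjusted p = 0.044) or microglia 221 (0.0388), and DESeq2 called it higher (log2 fold change 0.86, adjusted p = 0.0398). Ccl24, an eotaxin, was at 309, 35.5 and 8.13 CPM in lipid-laden MDM, at 599.6, 96.2, 2.21 and 105 CPM in MDM, at 70.2, 6.79, 6.28 and 4.27 CPM in lipid-laden microglia and at 63.7, 15.8, 5.96 and 3.41 CPM in microglia. Number 221 was the highest library in every group, by several-fold, and no comparison passed (edgeR adjusted p = 0.116 or more). Ccl25, the ligand of Ccr9, was at 6.83, 6.81 and 5.29 CPM in lipid-laden MDM, at 9.21, 8.96, 13.5 and 10.6 CPM in MDM, at 4.22, 8.02, 9.78 and 8.64 CPM in lipid-laden microglia and at 8.06, 9.25, 9.35 and 4.80 CPM in microglia. It was low throughout, and lipid-laden MDM lay under every MDM library (log2 fold change -0.74, edgeR adjusted p = 0.314).

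Ccl17 and Ccl22, ligands of Ccr4 that are typical of dendritic cells, were highest in MDM. Ccl17 (ENSMUSG00000031780, chromosome 8, 94810453 to 94812036) was at 49.7, 7.14 and 5.01 CPM in lipid-laden MDM, at 384, 71.4, 53.6 and 98.7 CPM in MDM, at 1.91, 0.557, 0 and 0 CPM in lipid-laden microglia and at 3.41, 1.61, 0.468 and 0 CPM in microglia. All MDM libraries were above all libraries of the other groups, with 221 the highest. It was higher in MDM than in microglia (log2 fold change 6.73, SE 1.15, edgeR adjusted p = 0.000552) and higher in lipid-laden MDM than in lipid-laden microglia (log2 fold change 5.02, SE 1.18, edgeR adjusted p = 0.0321). The second call was lost without lipid-laden MDM 221 (edgeR adjusted p = 0.19) or lipid-laden microglia 224 (0.0719), 431 (0.0914) or 718 (0.0799), and by limma-voom (adjusted p = 0.292). Its log2 fold change was 3.26 without lipid-laden MDM 221 and 6.76 without lipid-laden microglia 221. In MDM over microglia it was 5.72 without MDM 221 and 7.70 without microglia 221, both called. The log2 fold change of Ccl17 in lipid-laden MDM over MDM, -2.88, did not pass (edgeR adjusted p = 0.102), though it passed without lipid-laden MDM 221 (log2 fold change -4.65, edgeR adjusted p = 0.037) and by limma-voom (-3.24, adjusted p = 0.0296). With library number as a block it passed as well (-3.59, edgeR adjusted p = 0.000817). Ccl22 (ENSMUSG00000031779, chromosome 8, 94745590 to 94751699) was at 4.85, 5.73 and 7.65 CPM in lipid-laden MDM, at 163, 136, 40.7 and 110.4 CPM in MDM, at 4.82, 2.90, 0 and 0 CPM in lipid-laden microglia and at 0, 0, 0 and 3.79 CPM in microglia. The 3 lipid-laden MDM libraries were just above both microglial groups and well under every MDM library. Ccl22 was higher in MDM than in microglia (log2 fold change 6.95, SE 1.29, edgeR adjusted p = 0.00111) and lower in lipid-laden MDM than in MDM (log2 fold change -4.21, SE 1.23, edgeR adjusted p = 0.0468). The first fold rests on microglia 718, which held all 30 microglial counts. Without that library the fitted log2 fold change was 13.05, which is no bound, and limma-voom gave 9.38. The second call was lost without any 1 of the lipid-laden MDM libraries (edgeR adjusted p = 0.13 to 0.133), without MDM 221 (0.0987), 224 (0.102) or 718 (0.0858) and without lipid-laden microglia 224 (0.0505). Both genes lie within 66.4 kb on chromosome 8 with Cx3cl1. All 3 had a negative log2 fold change in lipid-laden MDM over MDM, where the median of all genes tested was 0.04. Of the 3, 1 was called, against 2.96% of all genes tested called lower. The receptor of Ccl17 and Ccl22, Ccr4, had no read in any library. The dendritic cell markers moved the same way (221 to 276 CPM in lipid-laden MDM against 1240 to 2830 CPM in MDM), with 6 of 11 called lower in lipid-laden MDM and 10 of 11 called higher in MDM than in microglia, and Dpp4, Clec9a and Cd209a at 0 counts in lipid-laden microglia. Their part in the result was not tested.

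Among CXC ligands, those of Cxcr2 (Cxcl1, Cxcl2 and Cxcl3) were higher in MDM than in microglia, and the interferon-induced Cxcl10 was lower. The 250 bases before the RefSeq start of these 4 genes (build GRCm38.p6, each read on its gene's strand) are shown because 3 of them moved one way and 1 the other. Capitals mark matches to the kappaB motif bound by NF-kappaB (GGGA, any 4 bases, CC), to the interferon response element (GAAA, any 2 bases, GAAA) and to the AP-1 motif TGANTCA, searched on both strands, and a capital run may hold overlapping matches on both strands.
Cxcl1 (chr5:90890995-90891244, plus strand): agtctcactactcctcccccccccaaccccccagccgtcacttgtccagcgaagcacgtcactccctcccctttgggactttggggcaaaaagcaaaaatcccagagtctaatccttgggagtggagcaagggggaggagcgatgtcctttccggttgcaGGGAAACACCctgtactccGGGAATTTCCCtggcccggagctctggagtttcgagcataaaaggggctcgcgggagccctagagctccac
Cxcl2 (chr5:90903649-90903898, plus strand): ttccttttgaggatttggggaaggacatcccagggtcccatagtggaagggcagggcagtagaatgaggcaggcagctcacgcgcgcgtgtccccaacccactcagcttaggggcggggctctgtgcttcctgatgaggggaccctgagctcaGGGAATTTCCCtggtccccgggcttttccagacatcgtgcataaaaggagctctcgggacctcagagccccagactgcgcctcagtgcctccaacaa
Cxcl3 (chr5:90785851-90786100, plus strand): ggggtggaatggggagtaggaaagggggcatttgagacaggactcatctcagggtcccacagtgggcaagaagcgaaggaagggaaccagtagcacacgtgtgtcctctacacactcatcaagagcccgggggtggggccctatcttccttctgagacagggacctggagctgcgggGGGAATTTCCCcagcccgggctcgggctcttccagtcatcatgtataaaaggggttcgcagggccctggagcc
Cxcl10 (chr5:92348890-92349139, minus strand): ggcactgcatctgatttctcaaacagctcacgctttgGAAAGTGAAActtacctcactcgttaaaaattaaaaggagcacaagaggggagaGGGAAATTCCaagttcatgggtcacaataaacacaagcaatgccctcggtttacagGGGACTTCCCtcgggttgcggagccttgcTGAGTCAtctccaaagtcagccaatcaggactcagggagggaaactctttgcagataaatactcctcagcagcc
Cxcl1, Cxcl2 and Cxcl3 share the run GGGAATTTCCC, which holds the kappaB motif on both strands. Cxcl10 held kappaB matches too, with 1 interferon response element and 1 AP-1 match. Of all 32851 promoters of the RefSeq table, 17.6% held the kappaB motif in the same window, 2.98% the interferon response element and 6.75% the AP-1 motif. Promoters were found for 30 of the 40 genes, with 34 entries, of which 14 (41.2%) held the kappaB motif, 2 the interferon response element and 4 the AP-1 motif. The STAT6 motif (TTC, any 4 bases, GAA) was searched as well and was held by 1 entry, that of Ccl17, against 5.85% of all promoters. A match is a description of letters and not a bound site.

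Cxcl1 (ENSMUSG00000029380, chromosome 5, 90891241 to 90893115) was at 48.0, 84.3 and 61.9 CPM in lipid-laden MDM, at 63.8, 66.1, 49.8 and 127 CPM in MDM, at 27.7, 52.0, 47.0 and 35.8 CPM in lipid-laden microglia and at 9.30, 11.8, 21.7 and 13.1 CPM in microglia. Both MDM groups and lipid-laden microglia lay above every microglial library. Cxcl1 was higher in MDM than in microglia (log2 fold change 2.45, SE 0.34, edgeR adjusted p = 9.09e-05). In lipid-laden over non-lipid-laden microglia its log2 fold change was 1.54 (SE 0.33), not past the threshold without the block (edgeR adjusted p = 0.113). Cxcl1 passed there with library number as a block (edgeR adjusted p = 0.0371, against 0.802% of all genes called in that fit). Its lipid-load effect in MDM minus that in microglia was -1.78 (SE 0.48, edgeR adjusted p = 0.0634), which passed without MDM 431 (edgeR adjusted p = 0.0452) or microglia 431 (0.0296) and by DESeq2 (adjusted p = 0.00772). Cxcl2 (ENSMUSG00000058427, chromosome 5, 90903871 to 90905938) was at 115, 219 and 155 CPM in lipid-laden MDM, at 181, 193, 172 and 237 CPM in MDM, at 79.9, 137, 68.0 and 157 CPM in lipid-laden microglia and at 65.5, 101, 74.9 and 142 CPM in microglia. MDM did not overlap microglia (log2 fold change 1.03, SE 0.29, edgeR adjusted p = 0.0183), and the call was lost without MDM 718 (edgeR adjusted p = 0.0536). Cxcl3 was scarce, with 35 counts over the 4 MDM libraries and 34 over the 3 of lipid-laden MDM against 0 in both microglial groups. It was at 1.65, 1.30 and 0.661 CPM in lipid-laden MDM, at 0.933, 0, 1.82 and 1.18 CPM in MDM, at 0 CPM in every library of lipid-laden microglia and at 0 CPM in every library of microglia. Set against 3 counts over the group, it was at least 11.1-fold higher in MDM than in microglia and at least 15.1-fold higher in lipid-laden MDM than in lipid-laden microglia. The first was called (edgeR adjusted p = 0.0357), the second was not (edgeR adjusted p = 0.119). The first call was lost without any 1 of the lipid-laden MDM or microglial libraries or without MDM 221, 431 or 718 (edgeR adjusted p = 0.0549 to 0.0671), and was not made by DESeq2 (adjusted p = 0.0573) or limma-voom (0.0548).

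Cxcl9, Cxcl10 and Cxcl11 are the interferon-induced ligands of Cxcr3 and lie side by side on chromosome 5 within 44.1 kb. Cxcl10 (ENSMUSG00000034855, chromosome 5, 92346638 to 92348889) was at 186, 171 and 234 CPM in lipid-laden MDM, at 138, 196, 158 and 186 CPM in MDM, at 257, 327, 277 and 319 CPM in lipid-laden microglia and at 279, 258, 297 and 392 CPM in microglia. Both MDM groups lay under both microglial groups. Cxcl10 was lower in MDM than in microglia (log2 fold change -0.85, SE 0.16, edgeR adjusted p = 0.00134), and in lipid-laden MDM over lipid-laden microglia its log2 fold change was -0.58 (edgeR adjusted p = 0.102, and 0.0288 with the block). Cxcl9 was at 41.3, 4.76 and 3.78 CPM in lipid-laden MDM, at 115, 41.0, 38.8 and 13.4 CPM in MDM, at 8.44, 0, 0.103 and 0.813 CPM in lipid-laden microglia and at 26.9, 0.538, 1.87 and 0 CPM in microglia. The level was highest in the library numbered 221 in every group, and MDM over microglia did not pass (log2 fold change 2.82, SE 1.42, edgeR adjusted p = 0.171), though it passed without microglia 221 (log2 fold change 6.00, edgeR adjusted p = 0.0165). Cxcl11 reached at most 6.98 CPM. Its 4 MDM libraries were above all other libraries, yet no comparison passed (edgeR adjusted p = 0.195 or more).

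Of the remaining CXC ligands, Cxcl16 and Cxcl14 were called. Cxcl16, a ligand of Cxcr6 that also exists as a membrane-bound scavenger receptor (ENSMUSG00000018920, chromosome 11, 70453983 to 70459984), was at 619, 621 and 517 CPM in lipid-laden MDM, at 751, 757, 672 and 807 CPM in MDM, at 393, 210.0, 158 and 252 CPM in lipid-laden microglia and at 344, 193, 189 and 214 CPM in microglia. All MDM libraries, lipid-laden or not, exceeded all microglial libraries. Cxcl16 was higher in MDM than in microglia (log2 fold change 1.67, SE 0.24, edgeR adjusted p = 0.000147) and higher in lipid-laden MDM than in lipid-laden microglia (log2 fold change 1.21, SE 0.26, edgeR adjusted p = 0.0172), a call that was lost without lipid-laden MDM 221 (edgeR adjusted p = 0.0527) or 224 (0.085). Cxcl14 was at 23.5, 23.1 and 35.2 CPM in lipid-laden MDM, at 13.5, 19.4, 17.3 and 26.1 CPM in MDM, at 24.5, 10.6, 16.0 and 18.1 CPM in lipid-laden microglia and at 9.20, 8.17, 8.18 and 6.95 CPM in microglia. Microglia lay under each of the other groups, and MDM over microglia passed (log2 fold change 1.23, SE 0.31, edgeR adjusted p = 0.00887). Lipid-laden over non-lipid-laden microglia did not pass for Cxcl14 (log2 fold change 1.09, edgeR adjusted p = 0.277). Cxcl13, which attracts B cells through Cxcr5, was at 36.5, 1.62 and 4.16 CPM in lipid-laden MDM, at 6.65, 0, 3.12 and 1.90 CPM in MDM, at 29.0, 6.79, 15.0 and 3.66 CPM in lipid-laden microglia and at 78.1, 5.16, 12.5 and 9.99 CPM in microglia. Its level was highest in number 221 in every group, and the log2 fold change of -3.19 in MDM over microglia did not pass (edgeR adjusted p = 0.0654), though it passed without lipid-laden MDM 221 (edgeR adjusted p = 0.0483) and by DESeq2 (adjusted p = 0.0113). Cxcl12, the ligand of Cxcr4 and Ackr3, had 0 counts in MDM and was counted in only 5 of the 15 libraries. It was highest in lipid-laden microglia 221 (14.5 CPM, 144 counts), then in microglia 718 (4.68 CPM) and lipid-laden microglia 718 (2.95 CPM).

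The other low ligands were Cx3cl1, Ccl27a and Xcl1. Cx3cl1, the ligand of Cx3cr1, was at 2.31, 1.30 and 6.14 CPM in lipid-laden MDM, at 9.91, 9.06, 7.55 and 18.4 CPM in MDM, at 4.32, 14.3, 0 and 12.5 CPM in lipid-laden microglia and at 4.55, 5.05, 1.52 and 6.45 CPM in microglia. For Cx3cl1, every MDM library lay above every library of lipid-laden MDM and of non-lipid-laden microglia. Lipid-laden microglia overlapped MDM, with 224 (14.3 CPM) and 718 (12.5 CPM) within its range. Ccl27a, the skin-homing ligand of Ccr10, lay between 0.234 and 2.44 CPM, and neither gene passed in any comparison by edgeR. Xcl1, made by T and NK cells, had 60 counts in MDM against 1 in microglia, a ratio of 57.1 with a counting interval of 9.87 to 2290. It was at 1.87, 0 and 1.32 CPM in lipid-laden MDM, at 3.85, 0.201, 2.21 and 0.725 CPM in MDM, at 0.502, 0, 0 and 0 CPM in lipid-laden microglia and at 0.103, 0, 0 and 0 CPM in microglia. It was called in MDM over microglia (edgeR adjusted p = 0.0479), but not without MDM 221, 431 or 718, any 1 of the microglial libraries, or lipid-laden MDM 221 or 718 (edgeR adjusted p = 0.0578 to 0.108). T and NK cell markers were higher in the same libraries, at 45.4 to 203 CPM in MDM against 4.17 to 14.2 CPM in microglia, with 6 of 12 called higher in MDM, and their part in the result was not tested.

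Among receptors, Ccr1 and Cxcr4 were higher in MDM and Ackr3 was higher in microglia. Ccr1, the receptor of Ccl3, Ccl5 and, in mice, Ccl6 and Ccl9 (ENSMUSG00000025804, chromosome 9, 123962124 to 123968692), was at 383, 386 and 291 CPM in lipid-laden MDM, at 726, 629, 340.4 and 609 CPM in MDM, at 51.9, 26.1, 25.9 and 44.1 CPM in lipid-laden microglia and at 38.2, 58.0, 12.5 and 44.3 CPM in microglia. MDM and lipid-laden MDM were several-fold above both microglial groups. Ccr1 was higher in MDM than in microglia (log2 fold change 3.91, SE 0.40, edgeR adjusted p = 5.77e-06) and higher in lipid-laden MDM than in lipid-laden microglia (log2 fold change 3.25, SE 0.40, edgeR adjusted p = 0.000396). Cxcr4 (ENSMUSG00000045382, chromosome 1, 128588199 to 128592293) was at 10.8, 61.3 and 35.1 CPM in lipid-laden MDM, at 37.2, 91.8, 69.7 and 41.9 CPM in MDM, at 14.7, 7.13, 3.09 and 6.30 CPM in lipid-laden microglia and at 7.44, 8.28, 7.48 and 3.67 CPM in microglia. It was higher in MDM than in microglia with no overlap (log2 fold change 3.16, SE 0.55, edgeR adjusted p = 0.000616). In lipid-laden MDM over lipid-laden microglia it was called (log2 fold change 2.19, SE 0.55, edgeR adjusted p = 0.0428), but lipid-laden MDM 221 overlapped, and the block ended the call (edgeR adjusted p = 0.068). That call was lost as well without lipid-laden MDM 224 (0.292) or 718 (0.1), lipid-laden microglia 224, 431 or 718 (0.0901 to 0.113), MDM 224, 431 or 718 or microglia 221, 224 or 431 (0.0501 to 0.0551), and by limma-voom (adjusted p = 0.138). Without lipid-laden MDM 224 the log2 fold change of Cxcr4 was 1.57.

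Ackr3, the atypical receptor that takes up Cxcl12 (ENSMUSG00000044337, chromosome 1, 90203980 to 90216751), was at 5.51, 4.44 and 7.56 CPM in lipid-laden MDM, at 0, 2.22, 0.911 and 4.89 CPM in MDM, at 29.3, 16.9, 20.8 and 24.7 CPM in lipid-laden microglia and at 13.5, 8.71, 13.9 and 15.6 CPM in microglia. The 4 groups stood in order with lipid-laden microglia highest and MDM lowest, and neither microglial group overlapped an MDM group. Ackr3 was lower in MDM than in microglia (log2 fold change -2.66, SE 0.72, edgeR adjusted p = 0.0141), with a log2 fold change of -3.59 without MDM 718. The log2 fold change was 0.83 in lipid-laden over non-lipid-laden microglia, without overlap but not past the threshold (edgeR adjusted p = 0.795), and -1.97 in lipid-laden MDM over lipid-laden microglia (edgeR adjusted p = 0.228). Of its ligand and the signalling receptor of that ligand, Cxcl12 was near 0 in most libraries and Cxcr4 was highest in MDM.

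Cxcr3, the receptor of Cxcl9, Cxcl10 and Cxcl11, had 252 counts in lipid-laden MDM and 0 in lipid-laden microglia. It was at least 112-fold higher in lipid-laden MDM (edgeR adjusted p = 0.0224), a call lost without lipid-laden MDM 224 (edgeR adjusted p = 0.0692) or lipid-laden microglia 431 (0.0556). It was at 12.9, 10.1 and 3.97 CPM in lipid-laden MDM, at 8.75, 4.63, 0.911 and 1.18 CPM in MDM, at 0 CPM in every library of lipid-laden microglia and at 0, 2.26, 0 and 1.39 CPM in microglia. T and NK cell markers summed to 36 to 123 CPM in lipid-laden MDM and 1.45 to 14.3 CPM in lipid-laden microglia, with 4 of 12 called higher. Cd3d, Il2rb, Gzmb, Ncr1 and Klrb1c were at 0 counts in lipid-laden microglia, though Klrb1c averaged only 0.0315 CPM in lipid-laden MDM. Cd3e (0.327 against 0.452 CPM) and Prf1 (1.06 against 1.71 CPM) were lower in lipid-laden MDM, neither called. The part of the T and NK cell markers in the result was not tested.

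Ccr9, the gut-homing receptor of Ccl25, was at 2.20, 0.325 and 3.59 CPM in lipid-laden MDM, at 14.3, 19.3, 14.7 and 27.0 CPM in MDM, at 0, 5.01, 1.85 and 0 CPM in lipid-laden microglia and at 0.207, 2.69, 4.09 and 1.01 CPM in microglia. Every MDM library exceeded every other library, and MDM over microglia did not pass (log2 fold change 3.23, SE 1.21, edgeR adjusted p = 0.0659), though it passed without lipid-laden microglia 221 (edgeR adjusted p = 0.0338), 224 (0.048) or 718 (0.0404), and by DESeq2 (adjusted p = 0.0154) and limma-voom (0.00808). Cxcr2, the neutrophil receptor of Cxcl1, was at 0.220, 18.2 and 1.80 CPM in lipid-laden MDM, at 40.2, 3.52, 4.94 and 21.1 CPM in MDM, at 32.2, 3.45, 0.309 and 2.24 CPM in lipid-laden microglia and at 9.92, 7.10, 2.34 and 4.17 CPM in microglia, with 1 or 2 high libraries in each of lipid-laden MDM, MDM and lipid-laden microglia and no call by edgeR. Ccr3, the eosinophil receptor, was at 2.75, 46.3 and 6.05 CPM in lipid-laden MDM, at 0, 0, 0 and 3.71 CPM in MDM, at 0.100, 0.780, 5.56 and 0.712 CPM in lipid-laden microglia and at 0, 0.538, 1.64 and 1.26 CPM in microglia, and the high value was a single library, lipid-laden MDM 224. The remaining receptors Ccr6, Ccr8, Cxcr5, Cxcr6 and Ackr1 reached at most 13.3 CPM (Ccr6 in MDM 221) and passed in no comparison by edgeR, though DESeq2 called Cxcr6 lower in lipid-laden MDM than in MDM.

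Of 20 genes outside the rule that encode related receptors and peptides, 7 were higher and 4 lower in MDM than in microglia (23.2% of all genes called), 4 were higher and 3 lower in lipid-laden MDM than in MDM (8.17%), and 3 were higher in lipid-laden MDM than in lipid-laden microglia (2.78%). The median log2 fold changes were 0.41, 0.10 and 0.25. In MDM over microglia the smallest p belonged to Ccr2 (6.81), Ccr7 (5.17), the complement receptor C5ar1 (-1.38) and the sphingosine phosphate receptor S1pr1 (-1.82), with edgeR adjusted p of 2.51e-06 to 0.00019. In lipid-laden MDM over MDM they were Ccr7 (-3.24), C5ar1 (1.14), S1pr1 (1.43) and Cx3cr1 (1.31), with edgeR adjusted p of 0.00117 to 0.00886. C5ar1 and Cx3cr1 also differed in their lipid-load effect between origins (1.42 and 1.62, edgeR adjusted p = 0.0108 and 0.0351). Cx3cr1, the fractalkine receptor and a microglial gene, averaged 1543 ± 549 CPM in lipid-laden MDM, 622 ± 75.9 CPM in MDM, 1729 ± 641 CPM in lipid-laden microglia and 2142 ± 388 CPM in microglia (SD), the same order as Ccl2. Pf4 (Cxcl4) was higher in lipid-laden MDM than in lipid-laden microglia, at 114 ± 28.4 against 11.6 ± 9.14 CPM, a log2 fold change of 3.28 (edgeR adjusted p = 0.0027).

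Of 39 genes of chemokine receptor signalling, 10 were higher and none lower in MDM than in microglia (23.2% of all genes called), with a median log2 fold change of 0.19. By p these were led by the kinase gene Fgr (3.09), the G protein regulator Rgs1 (1.21), the G protein subunit gene Gng2 (1.01) and Rgs18 (6.33), with edgeR adjusted p of 5.01e-06 to 0.000325. Lipid-laden MDM over MDM gave 2 lower and none higher (8.17%, median -0.26), Fgr (-1.68, edgeR adjusted p = 0.0046) and the Rac activator Tiam1 (-4.14, edgeR adjusted p = 0.0351). The effect of lipid load differed between origins for 1 of the 39, against 2.53% of all genes. This was Fgr, more negative in MDM (-1.96, SE 0.43, edgeR adjusted p = 0.0241). Lipid-laden MDM over lipid-laden microglia gave 4 higher and none lower (2.78%, median 0.18), among them Rgs18, Gng2 and Rgs1. In lipid-laden over non-lipid-laden microglia none of either list was called by edgeR, and with library number as a block Rgs2 was called lower (edgeR adjusted p = 0.0376) and Mif, a macrophage cytokine, higher (edgeR adjusted p = 0.0273). With the block, 4 of the related genes were higher and 1 lower in lipid-laden MDM than in lipid-laden microglia, the further calls being Cd74, the receptor of Mif, higher (edgeR adjusted p = 0.022), and Mif lower (0.0172).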

How the data were processed

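Bulk RNA-seq was made from lipid-laden and non-lipid-laden MDM and microglia sorted from mouse gliomas. Values are raw gene counts deposited by the authors in 1 table. The submitters' processing notes name the build mm10. The sources used here do not give the aligner, counter or strand setting, and reads from overlapping or near-identical genes may be split or lost. The 1 row without a gene name held 0 counts and was left out. All 15 libraries entered 1 edgeR 4.0.16 quasi-likelihood fit in R 4.3.3 (TMM scaling, filterByExpr with a minimum count of 10 and a minimum total of 15, 1 coefficient per group), with Benjamini-Hochberg adjustment over 14843 genes. Depth was 7798952 to 11419338 counts per library. Folds against 0 use a floor of 3 counts over the group, and counting intervals (95%) cover counting error only.

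The genes named in full are those called in a comparison of groups or averaging at least 10 CPM in a group, and the genes of each related list are the called ones with the smallest p (Cx3cr1 was added as the receptor of Cx3cl1). The members, marker lists and pathway lists were chosen with earlier results of these data known. Motif searches read RefSeq promoters (GRCm38.p6). Per-length levels use GENCODE exon lengths, found for all 40 genes that passed. The fit was tested on simulated counts, but no outcome of that test is given here and no call rests on it. Values of 1 of the 40 genes and of 1 signalling gene are not reported here.

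Libraries carry the same numbers in each group, and the labels do not say whether a number is an animal. Deviations from group means correlated between same-numbered libraries by 0.139 to 0.31 in lipid-laden over non-lipid-laden microglia (4 pairs) and by 0.119 to 0.206 in lipid-laden MDM over lipid-laden microglia (3 pairs), so both comparisons were also read with the number as a block. Ddx3y, a Y-linked gene, was counted in the libraries of number 224 alone, at 122 to 189 CPM. Xist, a marker of female cells, was at most at 0.43 CPM there and at 157 to 494 CPM in all other libraries. Number 224 thus differed in sex from the other numbers, so its libraries did not come from the same animal as theirs. Nothing states that the libraries of the other numbers in a group came from separate animals. The p-values measure only the spread between these samples, which may be technical in part. Alternatives were DESeq2 1.42.0, limma-voom 3.58.1, RLE size factors, no filter on low counts, the block, and leaving out each library or both lipid-laden libraries of number 221.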

Additional observations from a re-analysis of the deposited data

Results flagged for a closer look

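In groups of 4 libraries, 1 library stood apart from the other 3 by Dixon's test (its gap to the nearest over the group's range) for 19 of 112 gene and group combinations. A gene with reads in only 1 library of a group always stands apart by this measure, as Xcl1 did in microglia 221 with 1 read. The 19 are therefore not set against a chance rate. The 3 lipid-laden MDM libraries were not tested this way. Number 221 was the library that stood apart in 13 of the 19. In MDM, library 221 was the highest for Ccl17 (384 CPM, next 98.7), Ccl8 (62.4, next 12.3), Ccr8 (6.18, next 0.906) and Ackr1 (1.52, next 0), and MDM 718 for Ccr3 (3.71, next 0). In lipid-laden microglia, library 221 was the highest for Ccl24 (70.2 CPM, next 6.79), Cxcr2 (32.2, next 3.45), Cxcl9 (8.44, next 0.813), Cxcl11 (2.41, next 0.305) and Xcl1 (0.502, next 0). Also in lipid-laden microglia, library 431 stood apart for Ccr3 (5.56 CPM, next 0.78) and Ccr8 (0.103, next 0), and library 718 for Ccl27a (2.44, next 0.703). In microglia, library 221 was the highest for Cxcl16 (344 CPM, next 214), Cxcl13 (78.1, next 12.5), Cxcl9 (26.9, next 1.87) and Xcl1 (0.103, next 0), and library 718 for Cxcl12 (4.68, next 0.351) and Ccl22 (3.79, next 0).

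The effect of lipid load differed between MDM and microglia for 4 genes in edgeR's test of the difference, with log2 differences of 1.76 for Ccl2, 1.55 for Ccl12, 1.33 for Ccl3 and 1.00 for Ccl4.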

How the results depend on the processing

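No alternative reversed the direction of a result. Ccl2 and Ccl3 kept their calls in MDM over microglia, in lipid-laden MDM over MDM and in the difference between origins under every alternative run. Leaving out 1 library at a time gave 14 to 19 calls among the chemokine and receptor genes in MDM over microglia, 3 to 5 in lipid-laden MDM over MDM, 2 to 7 between lipid-laden cells, 2 to 5 for the difference between origins and 0 to 0 in lipid-laden over non-lipid-laden microglia. The same for all genes was 2755 to 3674, 657 to 1383, 168 to 431, 186 to 452 and 0 to 64. In lipid-laden over non-lipid-laden microglia, DESeq2 called 2 of the genes and 164 of all genes, the replicate block 1 and 119, and the fit without a filter on low counts 17 of all genes. In lipid-laden MDM over MDM, limma-voom called 10 of the genes and the block 9, against 5, and DESeq2 called 1982 of all genes against 1213. Between lipid-laden cells, leaving out both lipid-laden libraries of number 221 gave 3 of the genes against 6, and DESeq2 called 798 of all genes against 413. For the difference between origins, leaving out both gave 2 of the genes against 4, DESeq2 called 960 of all genes and the block 657, against 375. The cause of these shifts was not tested, other than that leaving out libraries leaves fewer samples. DESeq2 did not call Ccl22 lower in lipid-laden MDM than in MDM (adjusted p = 0.157), and the fit without a filter did not call Ccl4 there (edgeR adjusted p = 0.0521). Further calls in that comparison came from limma-voom for Ccr3 (higher), Ccr9 and Cxcl11 (lower), and from DESeq2 for Ccr9 and Cxcr6 (lower). Between lipid-laden cells limma-voom also called Cxcl3 higher, and DESeq2 called Cxcl10 lower (adjusted p = 0.0186). DESeq2 called Cxcr3 for the difference between origins. In MDM over microglia the fit without a filter did not call Xcl1 (edgeR adjusted p = 0.0709) and called Cxcl13 (0.0492).

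The rule for reading a comparison with the block asked for correlations of at least 0.1 between same-numbered libraries. MDM over microglia did not meet it (0.0234 to 0.187, each correlating best with its own number in 4 of 4). Neither did lipid-laden MDM over MDM (0.0433 to 0.178, in 2 of 3). Falling short of this cut-off does not show that these libraries are unpaired. The block ended the call of Cxcl3 in MDM over microglia (edgeR adjusted p = 0.0955) and added Ccl7, Ccl8, Ccl17 and Ccr1 in lipid-laden MDM over MDM (edgeR adjusted p = 0.00257, 0.00688, 0.000817 and 0.0419). It also added Ccl5, Ccl24, Ccr9, Cxcl9 and Cxcl13 in MDM over microglia, and Ccl7 and Cxcl1 for the difference between origins. Genes counted fewer than 100 times over a group, such as Cxcl3 and Xcl1, rest on too few reads for their fold to be given closely.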
